A study of Arabidopsis thaliana with 12 samples.

Results

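The response of wild-type Arabidopsis seedlings to salt was measured with one-colour microarrays in Col-0 grown on MS medium (the Murashige and Skoog plant salt mixture) or on MS medium with 200 mM NaCl. The arrays were chosen by the genotype and the medium in the sample labels alone, which gave 3 Col-0 MS and 3 Col-0 NaCl arrays, 6 of the 12 arrays of the series, and all 23680 features that passed a signal limit were compared. The other 6 arrays hold iU1-52, a single transgenic line that carries a double-stranded RNA interference construct for *GlcNA.UT1* in a *glcna.ut2-1* mutant background, on the same media; they were used for the common estimate of the spread and for the test of whether the salt response of Col-0 differed from that of this line, in which both genes for the last step of UDP-N-acetylglucosamine synthesis were targeted. No probe was matched by name to *GlcNA.UT1*, which may be among the 3398 tested probes that stayed unnamed, so its level is not given. The gene of the *glcna.ut2-1* mutation had, by the brighter of its 2 probes, a log2 normalised signal of 12.65 to 12.94 on the Col-0 arrays and of 11.60 to 12.69 on the iU1-52 arrays, and where this probe lies relative to that mutation is not given in the sources used here. Whole seedlings were harvested after 14 days, and the replicates were described as biological replicates. Per the methods of the study the seeds were sown directly on the salt plates, so the NaCl seedlings met salt from germination onward, and a salt response and a difference in developmental stage at harvest cannot be told apart.

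Excess NaCl confronts a plant with water that is harder to take up and with Na+ that is toxic in the cytosol. The hormone abscisic acid (ABA) rises under water deficit and is perceived by PYR/PYL receptors, which inhibit clade A protein phosphatases 2C and thereby free SnRK2 kinases to act on bZIP transcription factors. The same hormone acts in seeds, where *ABI3*, *ABI4* and *ABI5* take part in maturation, in desiccation tolerance and in the arrest of growth around germination, and where storage proteins, oil body proteins and late embryogenesis abundant (LEA) proteins accumulate. In an established seedling these seed proteins are normally no longer made, the stored oil has been turned into sugar through the glyoxylate cycle, and growth is carried by auxin, cell wall and photosynthesis genes.

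The 3 arrays of a group correlated at 0.990 to 0.992 in MS and at 0.994 to 0.995 in NaCl, whereas an MS and a NaCl array correlated at 0.864 to 0.883. Between 76.4% and 78.3% of the spots were well above background by the scanner's flag on the 6 arrays, and no spot was saturated. All levels given here are log2 values of the quantile-normalised signal, so that a difference of 1 is a 2-fold change; a feature was called higher or lower in NaCl at an adjusted p under 0.05 (limma, Benjamini-Hochberg over all features) together with at least a 2-fold difference. By this rule 2626 features (11.1% of those tested) were higher and 2874 (12.1%) were lower in NaCl, and the median difference over all features was -0.01. These shares are the background for each count of list or family members below, and a count near them says little about its list. The adjusted p alone passed in 16337 features (69%), and the MS and NaCl arrays did not overlap in 19527 (82.5%). Of the 5500 features called, 5470 had no overlap, so that separated groups are usual for a called gene. By the fitted difference 128 features rose and 23 fell by at least 64-fold. These counts include features that were not well above background in 1 group, whose fitted difference can exceed the fold that can be shown. Of the features called higher, 209 were detected on all NaCl arrays and no MS array, and 81 of those called lower had the reverse pattern. The 2 counts are therefore not a like comparison of folds. Of the 9 reference genes, 8 were not called (from *ACT8*, an actin, at -0.55 to *TIP41* at 0.52), and *GAPC1*, a cytosolic glyceraldehyde-3-phosphate dehydrogenase of glycolysis, was higher by 1.08. Each slide carried all 4 groups, and each group sat at 1 and the same place of each slide. An effect of that place therefore cannot be told apart from the group.

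Transcripts of seed reserves were the most strongly raised group in Col-0 on salt, and all 16 tested members of the 17 on the seed and embryo marker list were called higher, against 11.1% of all features. Most of them were at background on MS. A feature was tested if it reached the signal limit on any array, so markers at background on MS passed it through other arrays. Their being tested already favoured a higher call, and the count of 16 against 11.1% is not a like comparison. *CRA1*, the 12S globulin cruciferin A, had levels of 2.81, 3.51 and 2.92 on the 3 MS arrays and of 16.05, 17.06 and 16.82 on the 3 NaCl arrays. *CRU3*, another cruciferin, lay at 2.66, 2.88 and 3.09 in MS and at 15.65, 16.96 and 16.63 in NaCl. Neither gene was well above background on any MS array. In bulk tissue, fewer cells of a type and less RNA per cell cannot be told apart, so these levels do not say how many cells of a seedling carried seed transcripts. For a gene at background in one group only a bound on the fold can be given, computed from the mean of the bright group against the higher of the dim probe's own signal and the lowest signal that was well above background on the array. *CRA1* was at least 4924-fold and *CRU3* at least 4195-fold higher in NaCl (adjusted p = 9.7e-09 and 2.9e-10, limma).

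The 2S albumins are small sulfur-rich storage proteins encoded by neighbouring genes. *SESA1* was at 2.48, 2.60 and 2.78 in MS and at 11.96, 14.38 and 13.80 in NaCl, at least 514-fold higher. *SESA3* was at 2.99, 3.52 and 3.64 in MS and at 8.62, 12.77 and 11.45 in NaCl, at least 95.0-fold higher, and *SESA4* was at 1.93, 3.55 and 3.69 against 6.58, 9.68 and 8.88, at least 16.0-fold higher. NaCl replicate 1 was the lowest of the NaCl arrays for each of these genes, and the NaCl arrays of *SESA3* were the most spread. *SESA2* and *SESA5* were at least 263-fold and 1072-fold higher. Without NaCl replicate 1 the mean NaCl level was 14.09 instead of 13.38 for *SESA1*, 13.11 instead of 12.42 for *SESA2*, 12.11 instead of 10.95 for *SESA3* and 9.28 instead of 8.38 for *SESA4*, and without NaCl replicate 2 it was 10.04 for *SESA3* and 7.73 for *SESA4*. *CRU2*, a further cruciferin with 1 MS array well above background, was at 4.80, 1.78 and 1.81 in MS and at 9.23, 11.82 and 10.87 in NaCl, a difference of 7.84 (8.84 without MS replicate 1, 8.55 without NaCl replicate 1 and 7.25 without NaCl replicate 2). The probes of *SESA1* to *SESA4* target close paralogs, and signal shared between them by cross-hybridisation was not tested.

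The proteins that coat oil bodies followed. *OLEO2*, an oleosin, was at 3.62, 3.89 and 4.12 in MS and at 15.25, 15.98 and 15.74 in NaCl, at least 2485-fold higher, and *OLEO1* was at least 674-fold higher. *OLEO4* was the seed marker with the smallest gap, 7.46, 7.84 and 7.81 in MS against 11.30, 12.51 and 12.06 in NaCl, and was higher by 4.26 ± 0.25 (SE). *CLO1*, the caleosin of oil bodies, was at least 249-fold higher, and *HSD1*, the steroleosin, was higher by 8.67 with 2 of its 3 MS arrays well above background. The oleosin gene AT3G01570, which was outside the marker list, was among the 12 largest rises (7.82, 7.79 and 7.67 in MS, 14.02, 14.63 and 14.67 in NaCl, difference 6.68 ± 0.16, adjusted p = 8.3e-10).

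The desiccation-related seed transcripts rose as well. *EM6*, a group 1 LEA protein, was the largest rise among the genes measurable in both groups, at 5.37, 4.99 and 5.15 in MS and 13.99, 14.80 and 14.57 in NaCl, a difference of 9.28 ± 0.21 or 623-fold (adjusted p = 5.4e-10). *EM1*, the other Em protein, was at 3.58, 4.01 and 3.32 in MS and at 14.18, 15.21 and 15.17 in NaCl, at least 1425-fold higher. *M17*, a transcript of maturing seeds, and *PER1*, a seed 1-Cys peroxiredoxin, were at least 2656-fold and 1545-fold higher. *AtLEA4-1* rose from 5.16, 5.14 and 5.42 to 12.77, 13.29 and 13.44 (7.92 ± 0.16, adjusted p = 1.8e-10), and AT1G72100, which encodes a LEA-domain protein, rose by 7.37 ± 0.24. *TIP3;1*, a tonoplast aquaporin of seed protein bodies, was at 6.81, 7.28 and 7.17 in MS and at 13.79, 14.57 and 14.36 in NaCl, a difference of 7.15 ± 0.21, and its paralog *TIP3;2*, above background on 1 of 3 MS arrays, was higher by 6.75. In the plot of the seed transcripts by array, every NaCl point of a seed and embryo marker lies to the right of all its MS points.

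**Figure D1:**
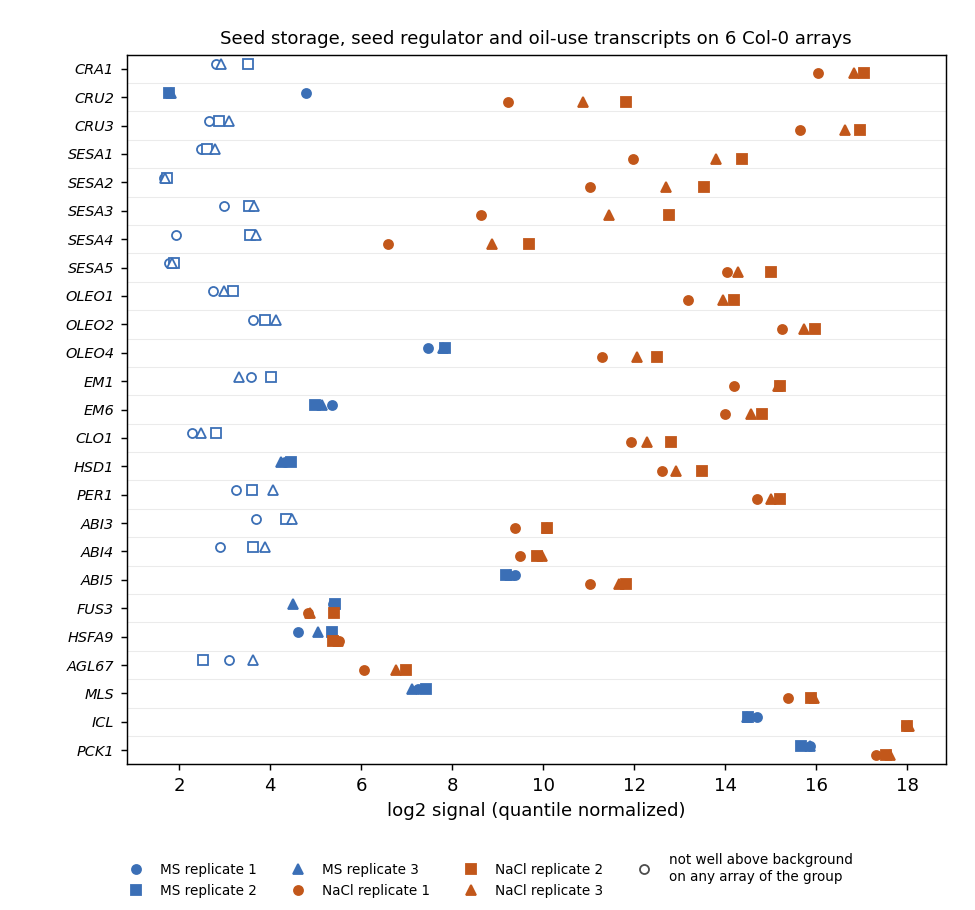
Levels of 16 seed and embryo markers, 6 regulators of the seed program and 3 genes of oil use in Col-0, with log2 normalised signal on the horizontal axis and 1 row per gene. Blue symbols are MS and orange symbols are NaCl arrays, circle, square and triangle stand for replicates 1, 2 and 3, and open symbols belong to a group in which no array was well above background. All 16 markers have NaCl points above their MS points, with NaCl replicate 1 lowest for *SESA1* to *SESA4*, while *FUS3* and *HSFA9* show no such gap.

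Over the 16 markers the mean level of an array was between 3.36 and 3.51 in MS and between 12.52 and 14.09 in NaCl, and 12 of the 16 were not well above background on any MS array. The median difference was 10.74 from the fitted levels and 9.14 with those 12 genes set at their bound. With any 1 of the 6 arrays left out, 16 members were at least 2-fold higher, and the median of the fitted differences was between 10.21 and 11.26. The signal limit bears on this count in the same way as on the calls. Such a pattern of no detection in MS and detection on all NaCl arrays was found for 218 features in all (0.921%), and the reverse pattern for 81 (0.342%).

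Among the transcription factors that drive seed maturation, some were higher in NaCl and others gave no call. The list used here was added after the seed markers had been seen and also holds *PKL*, *VAL1* and *VAL2*, repressors of the embryonic program. Of its 10 tested members, these repressors included, 5 were called higher and 0 lower, with a median of 0.91. *ABI3*, the B3-domain regulator of storage protein genes, was at 3.69, 4.35 and 4.48 in MS and at 9.39, 10.08 and 10.08 in NaCl, at least 44.5-fold higher, and *ABI4*, an AP2-domain factor, was at 2.89, 3.62 and 3.89 against 9.48, 9.87 and 9.98, at least 42.2-fold higher. *ABI5*, the bZIP factor that halts growth after germination, was already expressed in MS (9.38, 9.19 and 9.26) and was at 11.02, 11.81 and 11.66 in NaCl, a difference of 2.22 ± 0.20 (adjusted p = 3.9e-06). *AGL67*, a MADS-box factor linked to seed desiccation tolerance, was at least 4.68-fold higher, and *L1L*, a *LEC1*-like subunit of the NF-Y complex, was higher by 1.36 ± 0.18. The groups did not overlap for any of these 5 genes, as for 5470 of all 5500 called features.

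*FUS3*, a B3-domain factor of embryo identity, differed by -0.07 (adjusted p = 0.83) and *HSFA9*, the seed heat shock factor, by 0.46, and neither was called. *LEC1*, *LEC2* and *BZIP67* were below the signal limit on every array, and no probe was matched to *BZIP53*. The repressors of the embryonic program after germination, *PKL* (a chromatin remodeller), *VAL1* and *VAL2*, had differences of -0.56, -0.56 and -0.46 and were not called. *DOG1*, the dormancy gene and the 1 untested member of the seed marker list, was also below the signal limit. *FUS3* and *HSFA9* thus gave no call on the same arrays on which the storage genes lay far above background.

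The glyoxylate cycle, by which oilseed seedlings turn fatty acids into sugar, had transcripts that were higher in NaCl. *MLS*, malate synthase, was at 7.25, 7.42 and 7.11 in MS and at 15.38, 15.89 and 15.95 in NaCl, a difference of 8.48 ± 0.16 (adjusted p = 1.6e-10). *ICL*, isocitrate lyase, was at 14.69, 14.49 and 14.48 in MS and at 17.96, 18.00 and 18.03 in NaCl, a difference of 3.44 ± 0.07 (adjusted p = 1.8e-10). *PCK1*, the phosphoenolpyruvate carboxykinase that feeds gluconeogenesis, rose by 1.70 ± 0.09. The groups were far apart for all of these genes, with no NaCl array near any MS array.

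In the peroxisome, *KAT2*, the main thiolase of β-oxidation, rose by 1.45, the acyl-CoA oxidase gene *ACX2* by 1.25 and the citrate synthase gene *CSY3* by 1.32. The oil use list, which was also added after the data had been seen, had 6 of 10 members higher and 0 lower, with a median of 1.29. *SDP1*, the lipase that opens the oil body, and *PXA1*, the transporter that takes its fatty acids into the peroxisome, had differences of -0.37 each, *ACX1* of 0.59 and *CSY2* of 0.85, and these 4 were not called.

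Transcripts known to be induced by dehydration, cold and ABA in vegetative tissue were higher in NaCl for 17 of 26 members of that list, with 1 lower and a median difference of 1.69. *RD29A* and *RD29B*, the classical reporters of osmotic stress, were at 12.14, 11.13 and 11.02 and at 10.42, 10.34 and 9.75 in MS, and at 13.78, 14.17 and 14.50 and at 12.28, 12.70 and 12.60 in NaCl. Their differences were 2.72 ± 0.31 and 2.36 ± 0.28. *KIN1*, a small cold-induced protein, was at 14.80, 14.07 and 13.90 in MS and at 17.50, 17.43 and 17.55 in NaCl (3.24 ± 0.23), and *LTI30*, a dehydrin, was at 11.26, 11.20 and 11.27 against 14.65, 14.88 and 14.61 (3.47 ± 0.10, adjusted p = 2e-09). *LTI30* was tight in both groups, while *RD29A* and *KIN1* were higher in MS replicate 1 than in the other MS arrays.

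That array stood apart for several of these genes. *COR15A*, a chloroplast protein of cold acclimation, was at 11.29 in MS replicate 1 but at 7.52 and 7.2 in the other MS arrays, and at 13.09, 12.83 and 12.95 in NaCl. Its difference was 4.29 over all arrays, 5.60 without MS replicate 1 and 3.55 without MS replicate 3. The LEA genes behaved alike. *LEA7* was at 11.88, 9.97 and 9.78 in MS and 15.38, 16.03 and 15.94 in NaCl (5.24, and 5.91 without MS replicate 1). *LEA4-5* was at 6.99, 3.77 and 4.24 against 12.60, 13.40 and 13.16, with 1 MS array well above background (8.05, 9.05 without MS replicate 1 and 7.44 without MS replicate 2), and *XERO1*, a dehydrin with 2 such arrays, was at 7.57, 4.50 and 4.55 against 11.99, 12.74 and 12.60 (6.91, and 7.92 without MS replicate 1). AT3G02480, a LEA-family gene and the second largest rise of a gene measurable in both groups, also had a wide gap within MS, at 11.93, 6.68 and 6.73, against 17.19, 17.63 and 17.64 in NaCl (9.04, 10.78 without MS replicate 1, and 8.15 and 8.18 without the other MS arrays). For all of these genes every NaCl array was above every MS array, MS replicate 1 included. Without MS replicate 1 the list had 20 members at least 2-fold higher and a median of 2.03, and without any 1 of the 6 arrays these values ranged from 16 to 20 and from 1.58 to 2.03.

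Of the transcription factors on this list, *DREB2A*, which acts in drought and heat, was at 9.55, 10.09 and 9.59 in MS and at 12.07, 11.98 and 12.22 in NaCl (2.34 ± 0.16). *CBF2*, a regulator of cold acclimation, was at 5.43, 9.12 and 5.25 in MS and at 10.87, 10.07 and 10.29 in NaCl, so that MS replicate 2 lay apart from the other MS arrays. The difference was 3.81, 5.07 without MS replicate 2 and 3.13 without MS replicate 3. *CBF1*, with 2 MS arrays well above background, differed by 2.76 (3.91 without MS replicate 2 and 2.16 without MS replicate 3) and *CBF3* by 1.45. *CBF3* was at 6.2, 6.1 and 4.8 in MS and at 7.2, 6.9 and 7.3 in NaCl, so that its difference rested in part on MS replicate 3. *HB7*, a homeobox factor, rose by 1.42 and *RD20*, a stress-induced caleosin, by 2.05 (2.65 without MS replicate 1). *RAB18*, *COR47*, *ERD10* and *RD26* had differences of 0.50, 0.21, 0.99 and 0.88, below the 2-fold limit, and *ERD1*, a chloroplast Clp protease regulator, was lower by 1.55 in NaCl (15.19, 15.19 and 15.20 against 13.62, 13.58 and 13.74).

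**Figure D2:**
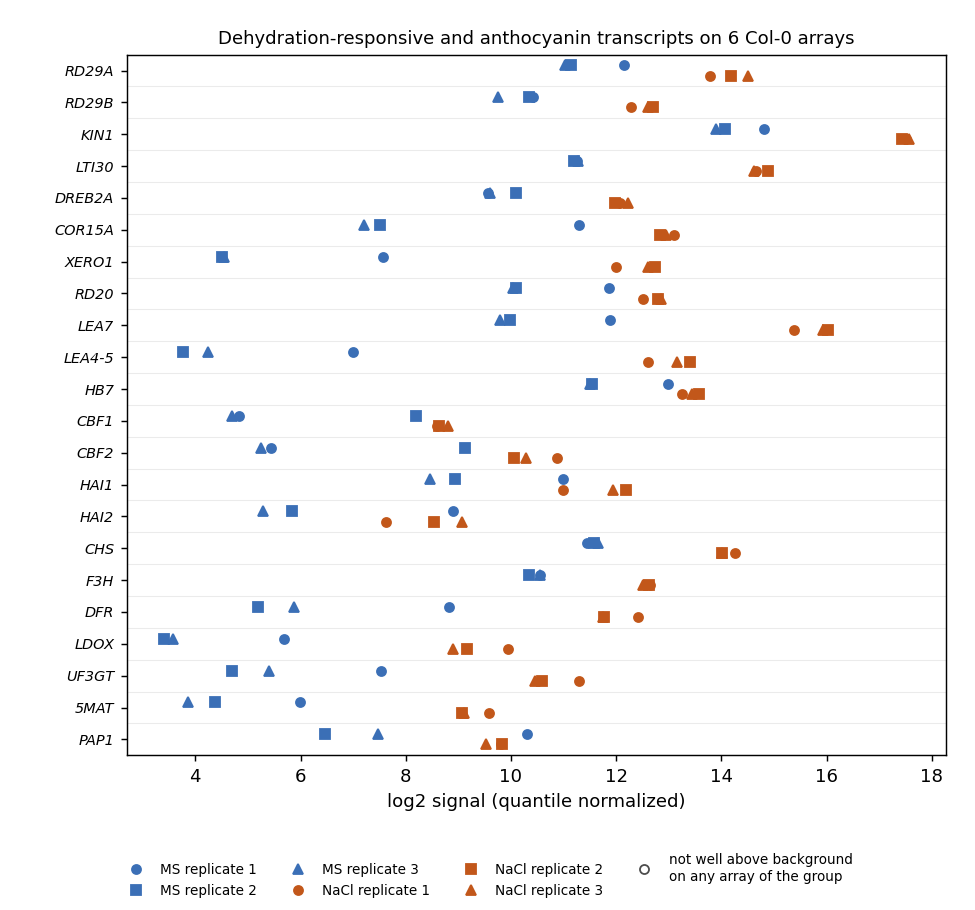
Levels of 22 genes of dehydration, ABA signalling and anthocyanin synthesis in Col-0, with log2 normalised signal on the horizontal axis and 1 row per gene. Blue symbols are MS and orange symbols are NaCl arrays, and circle, square and triangle stand for replicates 1, 2 and 3. MS replicate 1 lies to the right of both other MS arrays for *COR15A*, *LEA7*, *LEA4-5*, *XERO1*, *HAI1* and *DFR*, and MS replicate 2 does so for *CBF1* and *CBF2*.

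Genes of ABA metabolism were called higher in 7 and lower in 1 of 17 cases. *NCED9* and *NCED5*, which encode epoxycarotenoid dioxygenases that act in seeds, rose by 2.15 ± 0.15 and by 3.20 (1 of 3 MS arrays above background), and *NCED2* was at least 8.18-fold higher. *NCED3*, the dioxygenase known for ABA synthesis under drought, had a difference of -0.09 (adjusted p = 0.64), and *ABA1*, *ABA2* and *AAO3* of 0.59, 0.67 and 0.47. Breakdown genes rose too. *CYP707A1*, an ABA 8′-hydroxylase, was at 8.72, 8.70 and 8.45 in MS and at 10.72, 10.99 and 10.66 in NaCl (2.17 ± 0.12), and *CYP707A3* and *CYP707A4* were higher by 1.51 and 1.63. *BGLU18*, which frees ABA from its glucose ester, was higher by 1.63 ± 0.22 and *BGLU33*, a vacuolar enzyme of the same kind, was lower by 1.88 ± 0.24.

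In the signalling pathway downstream, 7 of 28 genes were higher and 3 lower, with a median of -0.07. Next to *ABI3*, *ABI4* and *ABI5*, described above, the higher members were phosphatases 2C. *HAI3* rose by 5.54 (1 of 3 MS arrays above background), *AHG1*, a phosphatase of seeds, by 1.58 and *ABI2* by 1.01. *HAI1* was at 11.00, 8.93 and 8.47 in MS and at 10.99, 12.19 and 11.95 in NaCl, so that the groups overlapped through MS replicate 1 (difference 2.25 ± 0.55, adjusted p = 0.00398, and 3.01 without that array). *HAI2* differed by 1.73 and was not called (adjusted p = 0.078), with 2.85 without MS replicate 1 and 1.04 without MS replicate 3. The receptors *PYL6* and *PYL9* were lower by 1.52 and 1.33, and the kinase *SNRK2.3* by 1.01. The kinase *OST1* and the bZIP factors *ABF1* to *ABF4* had differences of -0.26 and of -0.19 to -0.46.

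Genes of flavonol and anthocyanin synthesis were mostly higher, with 11 of 15 called higher, 1 lower and a median difference of 2.11. *CHS*, chalcone synthase, the entry enzyme, was at 11.44, 11.58 and 11.64 in MS and at 14.26, 14.02 and 14.02 in NaCl (2.54 ± 0.28). *F3H* and *F3'H*, which hydroxylate the flavonoid skeleton, rose by 2.11 and 1.92, and *FLS1*, flavonol synthase, by 2.08. Most of the late anthocyanin genes differed more widely between the MS arrays. *DFR*, dihydroflavonol reductase, was at 8.83, 5.19 and 5.88 in MS and at 12.42, 11.76 and 11.75 in NaCl (5.35, 6.44 without MS replicate 1 and 4.62 without MS replicate 2). *LDOX*, the anthocyanidin synthase, was at 5.68, 3.41 and 3.58, with 1 of 3 arrays above background, against 9.94, 9.17 and 8.91 (5.12, and 5.85 without MS replicate 1). *UF3GT* and *5MAT*, which decorate anthocyanins with xylose and malonate, rose by 4.91 and 4.51 with 2 and 1 MS arrays above background (5.74 and 5.14 without MS replicate 1, and 4.33 for *UF3GT* without MS replicate 2), and *UGT75C1*, a glucosyltransferase, by 2.47 (3.20 without MS replicate 1). *TT19*, a glutathione S-transferase of anthocyanin transport, rose by 1.29 ± 0.16.

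Of the regulators, *TT8*, a bHLH factor, was higher by 2.18 (2 of 3 MS arrays above background) and *PAP2*, an R2R3-MYB activator, was lower, at 8.85, 8.25 and 8.85 in MS against 5.82, 6.60 and 6.04 in NaCl (-2.50 ± 0.45). *PAP1*, the better known MYB activator, differed by 1.64 with an adjusted p of 0.094, by 2.75 without MS replicate 1 and by 0.83 without MS replicate 2. The count of members at least 2-fold higher was 12 over all arrays and 12 or 13 with 1 array left out, with medians from 2.00 to 2.41.

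Families of detoxifying enzymes and of transcription factors, grouped by their gene symbol after the data had been seen, held more higher than lower members. Of 25 glutathione S-transferases of the tau class, which conjugate glutathione to toxic compounds, 14 were higher and 3 lower (median 1.35); *GSTU2* rose from 8.30, 8.13 and 8.27 to 11.61, 11.52 and 11.25. Of 54 UGT glycosyltransferases, 19 were higher and 1 lower. *UGT74E2*, which glucosylates indole-3-butyric acid, was at 10.63, 10.25 and 10.77 in MS and at 15.82, 15.88 and 15.95 in NaCl (5.33, adjusted p = 3.4e-09). NAC factors were higher in 17 and lower in 5 of 56 cases, with *NAC13*, a factor of mitochondrial retrograde signalling, higher by 2.76, and WRKY factors in 15 and 6 of 57, with *WRKY30* higher by 4.52. *CYP81D8*, a cytochrome P450 that responds to many xenobiotics, rose by 3.89. The nitrilases *NIT2*, *NIT1* and *NIT3*, which lie next to each other, rose by 5.28, 1.84 and 2.21, from 12.76, 11.48 and 11.85 to 17.51, 17.22 and 17.19 in the case of *NIT2*; they are close paralogs and cross-hybridisation between them was not tested.

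**Figure D3:**
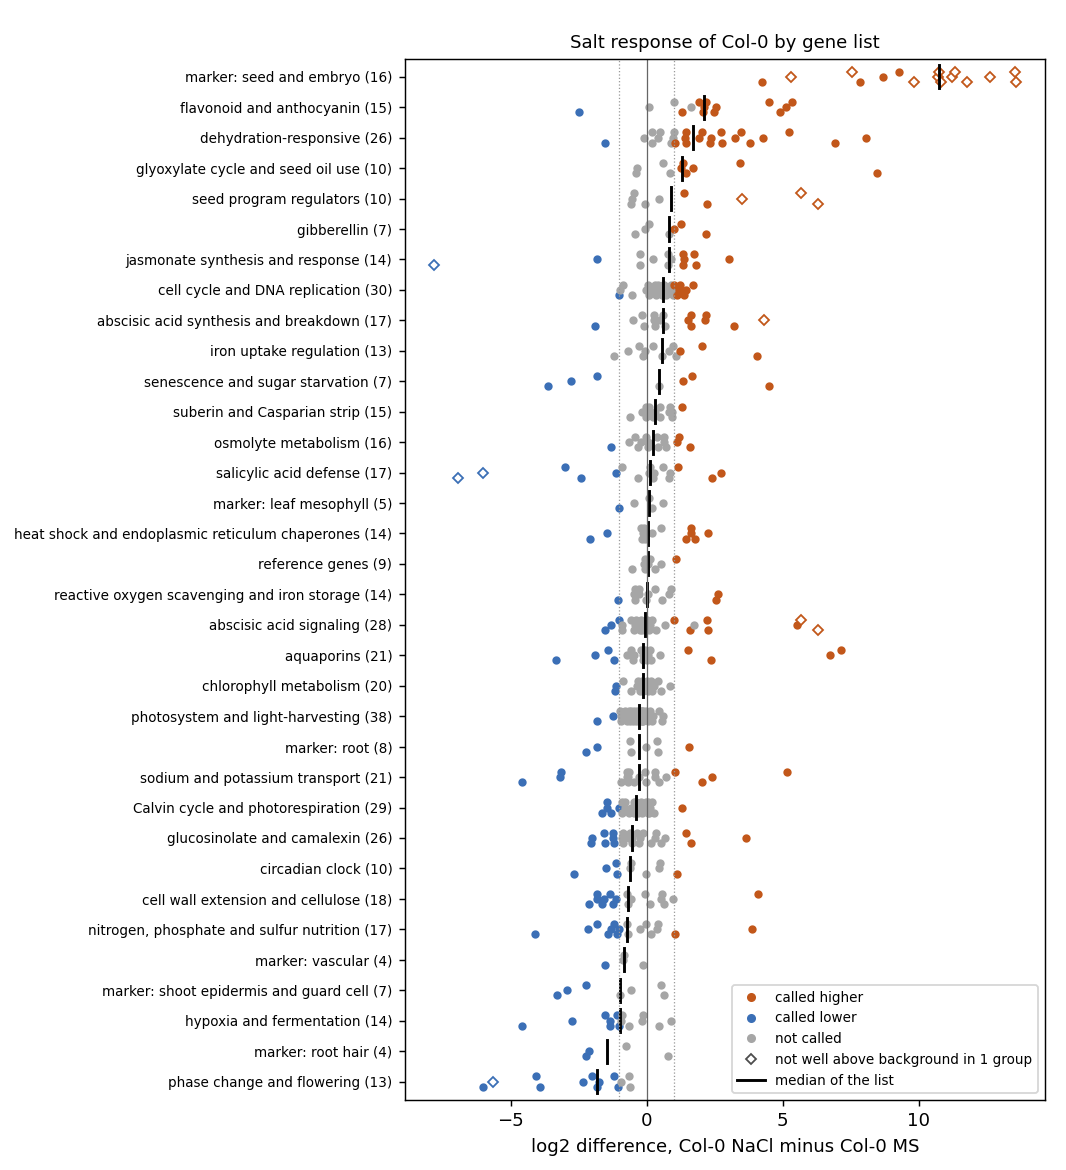
Difference NaCl minus MS in Col-0 (log2, horizontal axis) of each tested member of 34 gene lists, 1 row per list with the number of members in brackets. Orange points were called higher, blue points lower and grey points not called, open diamonds are genes not well above background in 1 of the groups, drawn at the fitted difference, which is not a fold, black bars are medians and dotted lines mark 2-fold. The seed and embryo markers lie far to the right with a median of 10.74, while most photosystem genes lie between the dotted lines.

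Ion transport changed at single genes. Over 21 genes of Na+ and K+ transport, 4 were higher, 3 lower and the median was -0.30, against 11.1% higher and 12.1% lower of all features. *HKT1*, which retrieves Na+ from the xylem, was at 8.26, 7.98 and 7.68 in MS and at 3.49, 3.07 and 3.64 in NaCl, a difference of -4.57 ± 0.19 (adjusted p = 2.6e-08). *SKOR*, the K+ channel that loads the xylem, was at 8.61, 8.95 and 8.85 against 5.82, 5.57 and 5.51 (-3.17 ± 0.19). *NPF7.3* and *NPF7.2*, the transporters that load nitrate into the xylem and remove it from there, moved in opposite directions. *NPF7.3* was at 15.53, 15.62 and 15.53 in MS and at 12.29, 12.45 and 12.54 in NaCl (-3.14 ± 0.13), and *NPF7.2* was at 8.11, 7.83 and 7.95 in MS and at 13.14, 13.37 and 12.84 in NaCl (5.15 ± 0.25). The 3 xylem-loading and retrieval genes *HKT1*, *SKOR* and *NPF7.3* were thus lower on every NaCl array than on any MS array, a separation that nearly all called features had.

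*HAK5*, the high-affinity K+ uptake transporter, rose by 2.40 ± 0.64 and *NHX3*, a vacuolar cation/H+ exchanger, by 2.03. In the SOS pathway of Na+ export, the Ca2+ sensor gene *SOS3* rose by 1.06 but missed the 2-fold limit without NaCl replicate 2 (1.00), and the exchanger gene *SOS1* and the kinase gene *SOS2* had differences of 0.30 and -0.30. *NHX1*, the main vacuolar Na+/H+ exchanger, had a difference of -0.74 and was not called.

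Compatible solutes gave 3 higher and 1 lower of 16 genes, and the scavenging of reactive oxygen 2 higher and 1 lower of 14. Over all features 11.1% were higher and 12.1% lower, so these small counts are not read as results about either list as a whole. *P5CS1*, the enzyme that commits glutamate to proline, was at 12.68, 11.40 and 11.41 in MS and at 12.81, 13.02 and 13.04 in NaCl (1.13 ± 0.33, adjusted p = 0.012); the difference fell below 2-fold without MS replicate 2 (0.91) or MS replicate 3 (0.92). *P5CDH*, an enzyme of proline breakdown that does not act on proline itself, rose by 1.19, the transporter gene *PROT3* by 1.61, and *MIPS1*, of inositol synthesis, was lower by 1.32. *CSD1* and *CSD2*, the cytosolic and the chloroplast copper/zinc superoxide dismutase, rose by 2.64 ± 0.13 and 2.56 ± 0.12. *CSD1* was at 13.67, 13.53 and 13.78 in MS and at 16.50, 16.33 and 16.04 in NaCl, and *CSD2* was at 11.99, 11.91 and 11.99 against 14.70, 14.53 and 14.35. On the same list *FER1*, a ferritin, was lower by 1.04, a call that was lost without MS replicate 3 (-0.97) or NaCl replicate 1 (-0.98). *CAT2*, the leaf catalase, rose by 1.32.

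Jasmonate genes were higher in 6 and lower in 2 of 14 cases. *JAZ10*, a repressor of jasmonate signalling, was at 8.63, 8.35 and 8.74 in MS and at 11.45, 11.95 and 11.45 in NaCl (3.04 ± 0.21), *JAZ1* rose by 1.74 and *JAZ7*, outside the list, by 4.00. The lipoxygenase genes *LOX4*, *LOX3* and *LOX2* rose by 1.80, 1.37 and 1.33, and of the allene oxide cyclases *AOC2* rose by 1.35 and *AOC1* was lower by 1.81. *PDF1.2*, the defensin used as a marker of the jasmonate and ethylene branch, was at 10.97, 9.93 and 9.69 in MS and at background in NaCl (1.92, 2.41 and 2.82), at least 142.5-fold lower. *MYC2*, the central factor, differed by 0.77 without a call.

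Salicylate defence was split. *PR1* was at 6.54, 7.63 and 9.26 in MS and at 1.78, 1.76 and 1.81 in NaCl, at least 27.3-fold lower; its MS mean was 8.45 without replicate 1 and 7.09 without replicate 3. *WRKY54* was at 9.18, 9.18 and 9.51 against 2.19, 2.41 and 2.42, at least 76.1-fold lower, its partner *WRKY70* was lower by 2.40 ± 0.16 and *NIMIN1*, an *NPR1*-interacting protein, by 3.02 ± 0.27. *PR2*, a β-1,3-glucanase, was higher, at 9.79, 8.84 and 10.08 in MS and 12.09, 12.42 and 12.42 in NaCl (2.74 ± 0.33), as was *WRKY38* by 2.41 ± 0.28. *ICS1*, the enzyme of salicylate synthesis, and the receptor gene *NPR1* had differences of 0.60 and -0.32. The list had 3 of 17 members higher and 5 lower, and *PCC1*, a small membrane-associated protein outside this list, had the largest bound of any fall. It was at 14.83, 14.24 and 14.45 in MS and at 1.87, 2.04 and 1.78 in NaCl, at least 2828-fold lower.

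Glucosinolate genes, which make the mustard oils of the Brassicaceae, were lower in 7 and higher in 3 of 26 cases, with a split between the branches. *MYB28*, the regulator of the methionine-derived branch, was at 10.84, 10.80 and 10.57 in MS and at 8.88, 8.55 and 8.66 in NaCl (-2.04 ± 0.11), and *CYP79F1*, its entry enzyme, was lower by 2.01 ± 0.21. The myrosinases *TGG1* and *TGG2* were lower by 1.57 and 1.52. In the tryptophan-derived branch *MYB34* rose by 1.63 ± 0.10 and *CYP79B2* by 1.44, and *CYP71A13*, of camalexin synthesis, rose by 3.64 with 1 of 3 MS arrays above background (4.37 without MS replicate 3).

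Among auxin-induced genes, those named SAUR and IAA were more often lower than higher. Of 14 genes named SAUR (small auxin up RNA), whose proteins promote cell expansion, 11 were lower and 0 higher, with a median of -3.44. *SAUR19* was at 10.47, 10.59 and 10.59 in MS and at 6.06, 5.39 and 5.65 in NaCl (-4.85, adjusted p = 1.8e-08), and AT1G29460 (*SAUR65*) and AT4G38825 (*SAUR13*) were among the 12 largest falls at -5.29 and -5.19. Of 21 IAA genes, auxin-induced repressors, 8 were lower and 2 higher, and *IAA29*, at 9.61, 10.20 and 10.39 against 6.47, 5.01 and 4.16, fell by 4.85 (5.48 without NaCl replicate 1). The SAUR genes are close paralogs in clusters, and cross-hybridisation was not tested.

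In the cell wall, 12 of 15 fasciclin-like arabinogalactan proteins (FLA) were lower and 1 higher (median -1.56). *FLA12*, which is coexpressed with secondary wall synthesis, was at 10.88, 10.89 and 10.99 in MS and at 7.43, 7.07 and 7.51 in NaCl (-3.58). The cellulose synthase genes of the secondary wall, *CESA4*, *CESA7* and *CESA8*, fell by 1.82, 1.62 and 1.83, and *CESA6*, of the primary wall, fell by 1.24, while *CESA1* and *CESA3* had differences of -0.59 and -0.67. The list of wall extension and cellulose genes had 8 of 18 members lower and 1 higher. That exception was the expansin gene *EXPA10*, at 10.90, 10.79 and 10.85 in MS and at 15.08, 14.79 and 14.94 in NaCl (4.1 ± 0.14, adjusted p = 7.4e-09). Outside the list *EXPA2*, an expansin of germinating seeds, rose from 4.88, 4.80 and 4.87 to 10.32, 10.29 and 10.24, and *EXPA8* on the list fell by 2.13. Of all 18 genes named EXPA, the α-expansins, 6 were higher and 3 lower, with a median of 0.76.

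Cell division genes had more higher than lower members. Of 30 genes, 7 were higher and 1 lower, against 11.1% and 12.1% of all features. Positive differences were found for 25, and the median was 0.61. The B-type cyclins *CYCB1;1*, *CYCB2;1* and *CYCB2;2* rose by 1.46, 1.38 and 1.2, the D-type cyclins *CYCD2;1* and *CYCD3;3* by 1.71 and 1.22, the kinase gene *CDKB1;1* by 1.13 and *KN*, the cytokinesis syntaxin gene, by 1.01. *KRP1*, a kinase inhibitor, fell by 1.02, a call that was lost without MS replicate 2 (-0.97), NaCl replicate 2 (-0.98) or NaCl replicate 3 (-0.99). *CYCB1;1*, a G2/M cyclin, was at 8.87, 8.78 and 9.05 in MS and at 10.42, 10.27 and 10.41 in NaCl.

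Water channels went in both directions. Beside the seed aquaporins, *PIP2;3* and *PIP2;5* of the plasma membrane rose by 2.38 ± 0.16 and 1.52 ± 0.10. *TIP2;3*, a tonoplast channel, was at 10.70, 11.33 and 12.10 in MS and at 7.64, 8.58 and 7.90 in NaCl (-3.34 ± 0.43), and *PIP2;4*, *PIP1;5* and *TIP2;1* fell by 1.89, 1.4 and 1.2. With the seed aquaporins 4 of 21 members were higher and 4 lower, against 11.1% and 12.1% of all features. The other 13 members were not called.

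Genes of the change from juvenile to flowering growth were lower, in 10 of 13 tested members of a list that was added after the data had been seen, with 0 higher and a median of -1.84. *FT*, the mobile flowering signal, was at 7.35, 8.02 and 7.88 in MS and at background in NaCl (2.80, 1.96 and 1.58), at least 26.2-fold lower. The integrators *SOC1* and *FUL*, both MADS-box factors, followed. *SOC1* was at 13.35, 13.22 and 13.21 in MS and at 10.93, 10.90 and 10.88 in NaCl (-2.35 ± 0.16), and *FUL* was at 10.95, 10.61 and 10.59 against 6.49, 6.73 and 6.71 (-4.07 ± 0.19). *SPL3*, a miR156-regulated promoter of phase change, was at 11.83, 11.73 and 11.50 against 7.73, 7.81 and 7.78 (-3.91 ± 0.36), and *SEP3*, a floral MADS-box gene, at 10.07, 10.17 and 10.54 against 5.35, 2.80 and 4.59 (-6.01 ± 0.56, and -5.29 without NaCl replicate 2). *AGL24*, *CO*, *SPL5* and *SPL15* fell by 2.02, 1.84, 1.76 and 1.2, and *FLC*, the repressor, fell by 1.07. The groups were separated for every one of these genes, as they were for 5470 of all 5500 called features. This included *FLC*, which works against flowering whereas the others work for it.

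In the clock, *GI*, an evening gene that also acts on *CO*, fell by 2.67 ± 0.23, *PRR7*, *TOC1* and *ELF3* by 1.5, 1.13 and 1.08, and the morning gene *CCA1* rose by 1.12 ± 0.13. The time of harvest was not given in the sources used here. Of 7 gibberellin genes, the DELLA repressor genes *RGL2* and *RGL3* rose by 2.17 ± 0.18 and 1.28 ± 0.13; *RGL2*, which restrains germination, was at 9.67, 9.47 and 9.46 in MS and at 11.37, 11.85 and 11.89 in NaCl. *GA20OX1*, a biosynthesis gene, rose by 1.00, a call that was lost without MS replicate 1 (0.94), NaCl replicate 1 (0.99) or NaCl replicate 2 (0.99).

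Hypoxia and fermentation genes were lower in 7 of 14 cases with 0 higher (median -0.99). *SUS4*, a sucrose synthase, was at 14.94, 14.97 and 14.83 in MS and at 10.49, 10.18 and 10.29 in NaCl (-4.60 ± 0.20), and *PDC1*, pyruvate decarboxylase, was at 14.19, 14.25 and 14.19 against 11.52, 11.50 and 11.36 (-2.75 ± 0.23). *LBD41*, *HRA1*, *PCO2*, *ETR2* and *HRE1*, of which most belong to the core response to low oxygen, fell by 1.51, 1.36, 1.34, 1.1 and 1.03. *ADH1*, alcohol dehydrogenase, had a difference of -0.90 and was not called.

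Nutrition genes were lower in 8 and higher in 2 of 17 cases. Those that report phosphate starvation fell, with *SPX3* at 12.78, 12.63 and 12.94 in MS and at 8.99, 8.09 and 8.91 in NaCl (-4.12 ± 0.31), *SQD2*, of sulfolipid synthesis, lower by 2.14, *SPX1* by 1.84 and the phosphate transporter gene *PHT1;4* by 1.08. For nitrogen, the dual-affinity nitrate transporter gene *NPF6.3* fell by 1.3, *GLU1*, the ferredoxin-dependent glutamate synthase of leaves, by 1.43 and *AMT1;1*, an ammonium transporter, by 1.19. *NRT2.1*, the high-affinity nitrate transporter, rose, from 5.96, 6.03 and 6.60 to 10.21, 9.77 and 10.21 (3.87 ± 0.19). *GLN1;3*, a cytosolic glutamine synthetase, rose by 1.05, a call that was lost without MS replicate 2 (0.98).

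Of 13 iron genes, *NAS4* and *NAS1*, of nicotianamine synthesis, rose by 2.03 and 1.22, and *BHLH100*, a bHLH factor of iron deficiency, was at 3.32, 1.57 and 4.67 in MS, above background on 1 array, and at 6.43, 8.29 and 7.01 in NaCl (4.06 ± 1.5). That call was lost without MS replicate 1 (4.13), MS replicate 2 (3.25), NaCl replicate 2 (3.54) or NaCl replicate 3 (4.18), and without MS replicate 3 the difference was 4.80. *FIT*, the central regulator of iron uptake, and its target *IRT1* had differences of -0.08 and 0.81. For heat and the endoplasmic reticulum, *BZIP60*, a transcription factor of the response to misfolded protein in the endoplasmic reticulum, rose by 1.64 ± 0.13 and its target *BIP3* by 1.43. The small heat shock genes *HSP17.4*, *HSP18.2* and *HSP17.6II* rose by 2.26, 1.79 and 1.62 (1 of 3 MS arrays above background for *HSP17.6II*) and *HSP101*, a disaggregase, fell by 1.46. *HSP21*, a plastid chaperone, was at 7.56, 5.14 and 5.95 in MS and at 4.72, 4.19 and 3.50 in NaCl, above background on 2 NaCl arrays (-2.08, and -1.41 without MS replicate 1).

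Senescence genes did not move as a group, with 3 of 7 higher and 3 lower. *NAP*, an age-dependent NAC factor, was at 13.49, 13.73 and 13.78 in MS and at 10.31, 9.98 and 9.87 in NaCl (-3.61 ± 0.19), and *SEN1* and *ORE1* fell by 2.78 and 1.82. *DIN2*, a sugar-repressed β-glucosidase, was at 9.67, 8.05 and 9.57 against 13.86, 13.53 and 13.40 (4.50 ± 0.49), *SAG21* rose by 1.33, and *SAG13* rose by 1.65 (1.04 without MS replicate 2). The suberin and Casparian strip list had 1 of 15 members higher, *FAR5* by 1.29, and 0 lower.

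Photosynthesis genes changed little in Col-0. Of 38 photosystem and light-harvesting genes, 0 were higher and 2 lower, *LHCB4.2*, a minor antenna protein, by 1.82 ± 0.23 and *PSAD2*, a subunit of photosystem I, by 1.23 ± 0.11, and the median was -0.27. *LHCB4.2* was at 16.20, 16.23 and 16.02 in MS and at 14.22, 14.40 and 14.37 in NaCl. *RBCS1A*, the Rubisco small subunit, had a difference of 0.09 (adjusted p = 0.19), and the share of members lower, 2 of 38, was below the 12.1% of all features.

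In the Calvin cycle and photorespiration, 5 of 29 genes were lower and 1 higher, against 12.1% and 11.1% of all features. *PRK*, phosphoribulokinase, was at 14.76, 14.96 and 14.74 in MS and at 13.41, 13.32 and 13.32 in NaCl (-1.47 ± 0.10), and the photorespiratory genes *HPR1*, *GLDP1* and *GLO2* fell by 1.44, 1.63 and 1.29. The higher one was *CAT2*, described above. In chlorophyll metabolism 2 of 20 genes were lower, *GUN4* by 1.12 and *PAO*, which opens the chlorophyll ring, by 1.15 (-0.98 and no longer called without MS replicate 1). *CA1*, the chloroplast carbonic anhydrase, fell by 1.03 (-0.97 without MS replicate 2).

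Markers of single cell types gave the following values, which bear on which tissues the whole-seedling RNA held. The mesophyll list had a mean level of 15.62 to 15.82 in MS and 15.61 to 15.63 in NaCl, with 1 of 5 members called. Of the 7 shoot epidermis and guard cell markers, the guard cell genes *KAT1*, *MYB60* and *FAMA* fell by 3.30 ± 0.32, 2.92 ± 0.13 and 2.23 ± 0.16. The 4 epidermis genes *LTP1*, *CER1*, *KCS6* and *ATML1* were not called (0.53, 0.65, -0.57 and -0.97), and the list mean went from 12.99 to 13.02 in MS to 11.69 to 11.78 in NaCl. Of the 4 root hair genes *LRX1* and *PRP3* fell by 2.24 and 2.12, and *COBL9* and *RHD6* were not called, with -0.77 and 0.80 (list mean 10.07 to 10.56 in MS and 8.95 to 9.33 in NaCl). The vascular list was at 12.37 to 12.57 in MS and 11.56 to 11.77 in NaCl, with 1 of 4 members called, *XCP2*, a protease of xylem vessels, lower by 1.52, and the root list at 11.71 to 11.81 and 11.38 to 11.40, with *PHO1* and *PLT1* lower by 2.23 and 1.82 and *MYB36*, an endodermal factor, higher by 1.56. *HKT1*, *SKOR*, *NPF7.3* and the secondary wall CESA genes were lower as *XCP2* was, while *NPF7.2* was higher, and the part that the share of vascular cells has in those results was not tested.

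The largest falls held few genes of the lists. AT3G16670, which encodes a small secreted protein of the pollen allergen Ole e 1 type, fell from 15.64, 15.67 and 15.94 to 5.08, 4.99 and 6.31, a difference of -10.29 ± 0.32 (adjusted p = 3.4e-09). AT1G67865 fell from 15.36, 15.00 and 15.10 to 6.52, 6.36 and 6.35 (-8.74 ± 0.32) and its neighbour AT1G67860 from 14.69, 14.18 and 14.57 to 8.98, 8.66 and 8.96 (-5.61 ± 0.28). AT1G67865 and AT1G67860 are similar in sequence, and signal shared between them was not tested.

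*AACT1*, an acyltransferase, fell by 6.23 ± 0.55, *NIP2;1*, an aquaporin-like channel for lactic acid known from anoxic roots, by 5.66 ± 0.19, and its near copy AT2G29870 by 5.62 ± 0.21. *UMAMIT17*, of an amino acid exporter family, fell by 5.24, AT5G62280 by 5.62 and AT2G47880, a glutaredoxin gene, by 5.20. Of the genes that were well above background on all MS arrays and on none of the NaCl arrays, *CYP71B22*, a cytochrome P450, was at 11.54, 11.89 and 12.07 in MS and at 1.61, 2.06 and 1.93 in NaCl, at least 444-fold lower, and AT3G46490 was at least 168-fold lower. The rises outside the lists named above were AT1G15330 (7.60 ± 0.24), AT5G01300 (7.55, and 8.44 without MS replicate 1), AT1G12064 (7.40 ± 0.17), AT3G15280 (7.14 ± 0.21) and AT2G47780 (7.00 ± 0.29).

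**Figure D4:**
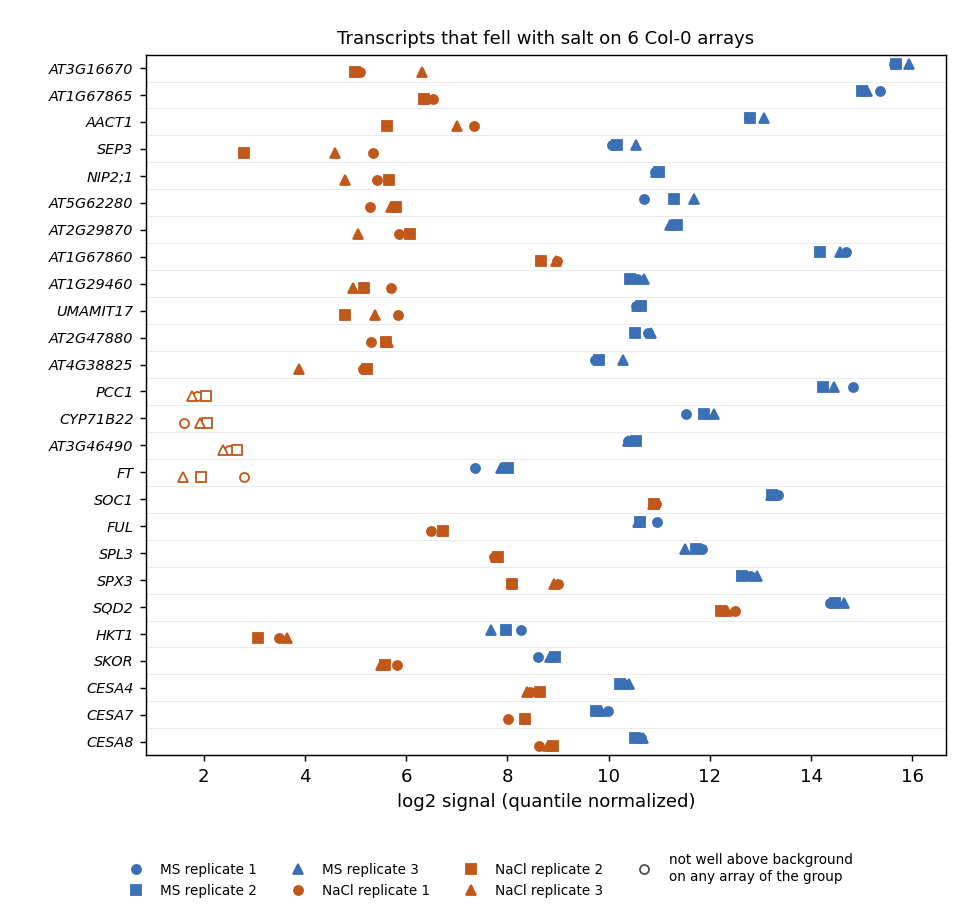
Levels in Col-0 of the 12 largest falls, the 3 largest bounds among falls and 11 genes of flowering, phosphate starvation, xylem transport and secondary wall cellulose, with log2 normalised signal on the horizontal axis and 1 row per gene. Blue symbols are MS and orange symbols are NaCl arrays, circle, square and triangle stand for replicates 1, 2 and 3, and open symbols mark a group with no array well above background. In every row the NaCl points lie to the left of the MS points, with *PCC1* at 14.24 to 14.83 in MS and 1.78 to 2.04 in NaCl. The 12 largest falls were chosen without overlap and the 3 bounds for detection in MS alone, so their separation follows from the choice.

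The salt response of Col-0 was then set against that of iU1-52, measured against its own MS arrays. Of the features higher in Col-0, 2076 (79.1%) were also higher in iU1-52, which was 66.9% of the 3102 features higher there, and 2134 (74.3%) of those lower in Col-0 were also lower in iU1-52, 62.7% of 3403. Of the rest, 527 higher and 730 lower features were called in Col-0 and not in iU1-52, and 23 and 10 were called the opposite way. A missing call in iU1-52 is not by itself a difference between the lines. Of the 527 and 730 features, only 99 and 132 had a called interaction, the test described next. The difference of the 2 responses was itself tested as an interaction, and 2261 features (9.55%) were called. It was called for 592 (22.5%) of the features higher in Col-0, with 422 of them further from 0 in iU1-52, and for 619 (21.5%) of those lower in Col-0, with 417 further from 0.

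Among the gene groups, photosystem genes differed most often. Of the 38 photosystem genes 37 were called, all with a lower value in iU1-52, where their median difference was -2.74 against -0.27 in Col-0. *CA1* fell by 1.03 in Col-0 and by 5.21 in iU1-52. The interaction was called for 12 of the 16 seed markers and 13 of the 26 dehydration genes, whose median was 2.59 in iU1-52 against 1.69 in Col-0. *EM6* rose by 9.28 in Col-0 and by 11.59 in iU1-52, and *ABI5* by 2.22 and 4.73.

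The hypoxia list had a median further from 0 in Col-0. Of its 14 genes 6 had a called interaction, with a median of -0.99 in Col-0 and -0.01 in iU1-52. *PR2* and *WRKY38* rose by 2.74 and 2.41 in Col-0 and had differences of -0.87 and -0.14 in iU1-52. For flavonoid genes 2 of 15 were called, both with a higher value in iU1-52 (list median 2.64 there against 2.11 in Col-0), and for cell cycle genes 1 of 30. In the plot of both responses, photosystem genes lie below the line of equality and seed genes above it.

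**Figure D5:**
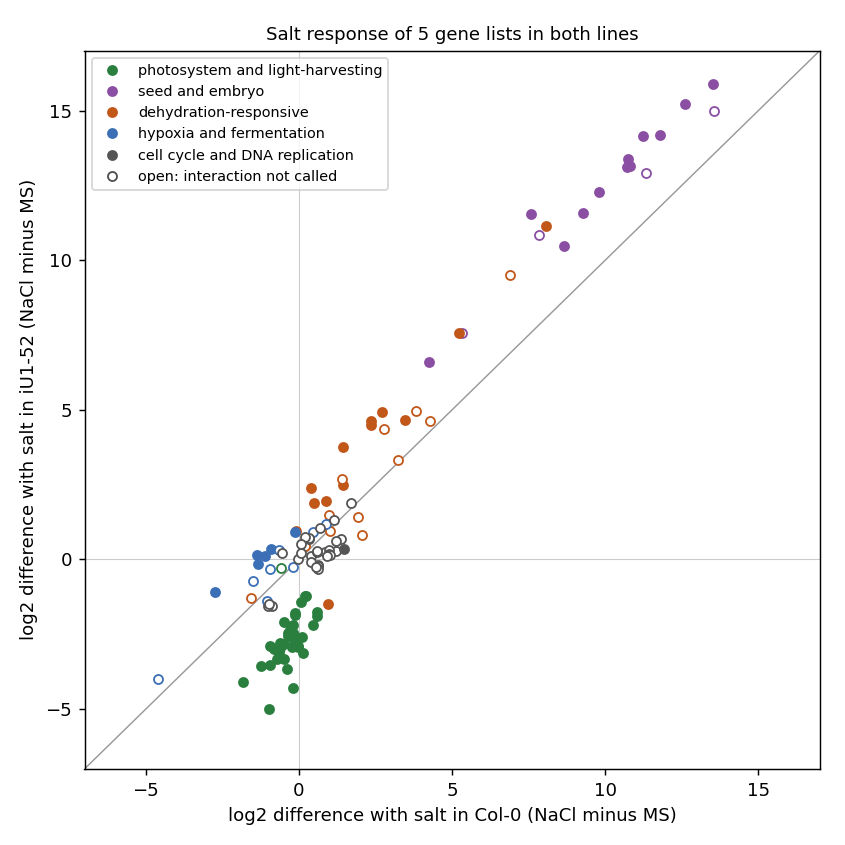
Difference NaCl minus MS (log2) in Col-0 on the horizontal axis and in iU1-52 on the vertical axis for the photosystem, seed and embryo, dehydration, hypoxia and cell cycle lists, 1 point per gene. Filled points had a called interaction and open points had not, the diagonal line marks equal responses, and seed genes not detected in MS are drawn at fitted values that are not folds. The photosystem genes cluster near 0 in Col-0 and lie lower in iU1-52, with medians of -0.27 and -2.74.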

How the data were processed

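RNA of whole seedlings of 4 groups (Col-0 and iU1-52, each on MS and on MS with 200 mM NaCl) with 3 replicates each was hybridised to one-colour Agilent Arabidopsis arrays. The authors deposited the scanner output, whose Cy3 intensity per spot had been background-subtracted within the array by Feature Extraction 10.7.1.1 and was not normalised between arrays.

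From these intensities control spots and outlier spots were removed, spots of a probe were averaged, probes under a signal of 100 on every array were dropped, and the rest were quantile normalised and taken to log2. Probes were named through RefSeq (TAIR10.1), which matched 34358 of 43603 probes (78.8%), and the brightest probe stood for its gene, which gave 20282 genes and 3398 unmatched probes. All 12 arrays were fitted with limma 3.58.1 in R 4.3.3 (1 mean per group, lmFit and eBayes), with Benjamini-Hochberg adjustment over all 23680 features. The pipeline was also run on simulated data with 200 changed features, far fewer than were called here. That run cannot show how quantile normalisation acts on a response of this size. P-values measure the spread between these 3 replicates per group, and the number of arrays limits the precision.

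The genes named were the 12 largest rises and falls among called genes well above background on all 6 Col-0 arrays and without overlap, the 3 largest bounds in each direction, up to 4 called members per list in its main direction and 2 against it, members that define a pathway, and the reference and marker genes. Other list members, symbol families, neighbouring genes and genes that differ on 1 array were chosen after their values were seen. Members and lists were chosen with earlier results of these data known, and the lists of seed regulators, oil use and flowering were added later. Promoter motifs were not used here.

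Alternatives covered the scaling (75th percentile of each array), the background (normexp with an offset of 50 on median pixel intensities, where mean intensities had been planned), the filter (none, or well above background), the fit (replicate number as a block, 6 Col-0 arrays only, array weights, the methods' 2-way ANOVA), the probe rule (mean over a gene's probes, or every probe separately), the thresholds, and leaving out each array.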

Additional observations from a re-analysis of the deposited data

Results flagged for a closer look

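Of the 160 genes named by rule, 67 had a salt response that differed between iU1-52 and Col-0 by the interaction term of the fit (adjusted p under 0.05, limma, and at least 2-fold), against 9.55% of all features. Among features called in Col-0 the share was 22.5% of the higher and 21.5% of the lower ones. The 160 genes were all called in Col-0 and mostly picked for large changes, so neither share is a like comparison. In 49 of them the response was further from 0 in iU1-52, and in 18 it was nearer to 0 or turned. The values below are the change with salt in iU1-52 minus the change in Col-0 on the log2 scale. For a gene not well above background in one group they rest on a fitted background level and are no fold.

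Among seed transcripts the difference was 2.31 for *EM6*, 2.37 for *CRU3*, 2.61 for *SESA5*, 2.40 for *OLEO2*, 1.66 for *AtLEA4-1*, 2.80 for AT1G72100, 2.07 for *TIP3;1*, 2.84 for *TIP3;2* and 1.86 for the oleosin gene AT3G01570. *LEA7* and *LEA4-5* had 2.34 and 3.10, and *MLS*, the malate synthase gene, 1.19. The other large rises AT1G15330, AT5G01300, AT1G12064, AT3G15280 and AT2G47780 had 1.83, 2.95, 1.84, 3.27 and 1.26. All of these rose in Col-0 and rose further in iU1-52. The seed regulators *ABI3*, *ABI4*, *ABI5* and *AGL67* had 2.06, 2.22, 2.51 and 2.45, the phosphatase gene *HAI3* 3.06, the ABA synthesis gene *NCED9* 1.3 and the DELLA genes *RGL2* and *RGL3* 1.34 and 1.58. *NHX3*, a vacuolar exchanger, had 2.46, *CAT2* 1.02, and the small heat shock genes *HSP17.4*, *HSP18.2* and *HSP17.6II* had 1.31, 1.42 and 2.22.

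Genes that fell in Col-0 and fell further in iU1-52 included those of photosynthesis. The difference was -2.27 for *LHCB4.2*, -2.32 for *PSAD2*, -2.13 for *PRK*, -1.64 for *HPR1*, -1.48 for *GUN4* and -4.18 for *CA1*. *FUL* and *SPL3*, of flowering, had -4.90 and -3.63. *SPX3* and *SQD2*, of phosphate starvation, had -2.44 and -1.09, *GLU1*, of nitrogen assimilation, -1.34, *CYP79F1* and *TGG2*, of glucosinolates, -1.32 and -2.44, *BGLU33* -2.36 and the guard cell gene *FAMA* -1.23. The large falls AT3G16670, AT1G67865, AT1G67860 and AT1G29460 had -3.12, -3.04, -3.19 and -1.80.

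The response was nearer to 0 in iU1-52 for other falls, with 2.35 for *NIP2;1*, 2.49 for AT2G29870, 3.93 for *CYP71B22*, 1.91 for AT3G46490, 1.16 for *FER1*, 2.07 for *PAP2*, 2.22 for *NIMIN1*, 4.36 for *PDF1.2*, 1.66 for *PDC1*, 1.5 for *HRA1*, 1.43 for *HSP101*, 1.2 for *NAP* and 1.09 for *GI*. It was also nearer to 0 or turned for the rises *PR2* (-3.61), *WRKY38* (-2.55), *EXPA10* (-1.41) and *CYCB1;1* (-1.1). *HSP21*, a plastid chaperone gene, was the 1 gene called in opposite directions, with a change of -2.08 in Col-0 and 3.04 in iU1-52 and a difference of 5.12.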

How the results depend on the processing

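The number of features called in Col-0 was 5500, and between 4167 (normexp background correction) and 7033 (each probe on its own) under the other scalings, filters, fits and probe rules. Between the reported setting and each alternative except every probe on its own, 0 features were called in opposite directions. The adjusted p alone, without the fold limit, gave 8045 higher and 8292 lower features, 16337 in all, and 6807 for the interaction. With 1 array left out the counts were 2582 to 2649 higher, 2832 to 2908 lower and 5414 to 5550 in all, and 2004 to 3214 for the interaction, highest without iU1-52 NaCl replicate 1. Replicates with the same number lie on 1 slide. For the Col-0 MS and NaCl arrays of a number, the deviations from the group means correlated at only 0.0042, 0.038 and 0.023. These values do not cover the iU1-52 arrays, so pairing between the lines was not tested. With the replicate number as a block 5505 features were called, 5499 of them the same. Over the 160 named genes and 25 settings, 3955 of 3999 values stayed past the threshold in the same direction, 44 values of 18 genes did not, and 0 turned. The calls lost under settings other than a left-out array included *HSP21* (under 5 settings), *FER1* and *CA1* (-0.89 and -0.87 with scaling to the 75th percentile) and *GAPC1* (0.47 with each probe on its own). Of the 1335 genes with several probes and a called one, 405 had probes without a call and 3 had probes called in opposite directions. Background limits the dim group of 290 called features, for which only a bound was given, and 3 arrays per group limit the rest.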

Other observations

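Single arrays differed from both other arrays of their group by more than 2-fold in sets of genes. MS replicate 1 was more than 2-fold above both other MS arrays for 173 features and more than 8-fold above for 41. *LTP4*, a lipid transfer protein gene, was at 14.84 there and at 6.58 and 6.77 on the other MS arrays, with 13.65, 12.40 and 12.54 in NaCl, so that it was not called (adjusted p = 0.096, limma). *TSPO*, an ABA-induced membrane protein gene, was at 11.85 there and at 6.15 and 6.66 on the others, with 14.31, 14.89 and 14.87 in NaCl (6.47, and 8.29 without MS replicate 1, 5.43 without MS replicate 2 and 5.69 without MS replicate 3). MS replicate 2 had 138 such features, among them *ERF13*, an ethylene response factor gene, at 10.30 against 7.90 and 7.68, with 12.41, 12.43 and 11.76 in NaCl (3.57, and 4.41 without MS replicate 2). The other 4 Col-0 arrays had 34 to 77 such features. The genes named here are examples chosen after their values were seen. The cause of these differences was not tested.

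Neighbouring genes were often called together. Of 15886 pairs of neighbouring tested genes, 313 were both higher, 293 both lower and 358 of opposite call. The right neighbour of a higher gene was higher in 17.5% of cases, against 11.3% for all right neighbours, and the right neighbour of a lower gene was lower in 16.5%, against 11.3%. Of the 20 runs of 4 or more adjacent genes with the same call, 13 were higher and 7 lower, and many held members of 1 family, whose probes may share signal. Examples were the *CYP71B16*, *CYP71B17*, *CYP71B19* and *CYP71B20* cytochrome P450 genes, at -2.74, -2.86, -2.20 and -2.12, *SAUR63*, AT1G29450 and AT1G29460 at -3.69, -4.15 and -5.29, and 3 UGT76E genes beside *UGT76E11* at 2.83. Other symbol families moved mostly one way, with 8 of 15 OFP genes (growth repressors of the ovate family), 7 of 15 TCP genes and 6 of 12 PUP purine transporter genes lower, and 2, 0 and 0 higher. *PUP2* was at 8.55, 8.45 and 8.39 in MS and at 5.53, 5.07 and 5.35 in NaCl (-3.15). By contrast 0 of 19 genes with the symbol EIF, of translation initiation, were called in either direction.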
